A study of Capra hircus with 6 samples.

Results

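The genes described here are 10 members of transforming growth factor beta (TGF-beta), activin and bone morphogenetic protein (BMP) signalling. They were chosen by gene symbol, with earlier results of these data known. The ligand genes are INHBA, TGFB1, TGFB2, TGFB3 and BMP4, and the antagonist genes FST and GREM1. The others are the feedback inhibitor SMAD7 and the target genes ID1 and ID3. All 10 were found among the 16599 genes with values, and 9 had enough reads to be tested. GREM1 did not.

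All libraries came from the goat line mGSCs-I-SB. The labels class it as spermatogonial stem cells, which renew the germ line of the testis. Every group was this line grown in DMEM/F12 with fetal bovine serum and antibiotics, with 2 messenger RNA libraries per group. The shCON group carried a control hairpin RNA and is labelled WT, the shUCHL1 group is labelled UCHL1 knockdown, and the shHSPA8 group is labelled HSPA8 knockdown. UCHL1 is a ubiquitin C-terminal hydrolase and HSPA8 the constitutive HSP70 chaperone, and the series title sets the first against the second. The labels give neither the number of hairpins per gene, nor whether the groups are clones or pools, nor whether the libraries of a group came from separate cultures. Each p-value is thus set against differences between libraries that may be technical ones.

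Ligands of this superfamily are secreted dimers that bring together type I and type II receptor kinases. TGF-betas and activins signal through SMAD2 and SMAD3, and BMPs through SMAD1, SMAD5 and SMAD9, each with SMAD4. In the testis, activin, BMP4 and TGF-beta ligands take part in the exchange between germ cells and the somatic cells around them. Activin A is a dimer of the subunit that INHBA encodes, follistatin (FST) binds and neutralises it, and the ID genes are direct targets of BMP signalling in many cell types.

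Library totals lay between 1.57e+07 and 1.64e+07 counts, and 12665 genes entered the test. Levels are counts per 1000000 counts of the library (CPM), scaled with TMM factors, with mean ± SD over 2 libraries. A gene is called changed where edgeR's quasi-likelihood test gave p under 0.05 after Benjamini-Hochberg adjustment over those 12665 genes, and "edgeR adjusted p" below always means that test. The targeted transcripts were lower in their own lines. UCHL1 stood at 405 and 451 CPM in shCON, 94.3 and 97.7 CPM in shUCHL1 and 386 and 334 CPM in shHSPA8. HSPA8 stood at 4016 and 4112 CPM in shCON, 5252 and 5345 CPM in shUCHL1 and 2631 and 2528 CPM in shHSPA8. Chi-square per degree of freedom between the libraries of a group was 2.32 for shUCHL1, 11.6 for shHSPA8 and 21.7 for shCON, where 1 would be sampling noise alone. The fit pools the spread of each gene over all lines. Standard errors (SE), intervals and p-values thus do not follow the spread of only the lines compared. Of 16 germ cell markers 7 carried values, with DDX4 between 0.428 and 1.95 CPM in all libraries and KIT and POU5F1 at 0 in at least 1 library. The others were ETV5 at 9.99 to 13.3 CPM, ID4 at 1.96 to 10.2, RET at 0.245 to 1.53 and GFRA1 at 0.180 to 1.08. All 12 fibroblast and myoid markers carried values. The collagens COL1A1, COL1A2 and COL3A1 were between 5638 and 12302 CPM, while MYH11, DES and CNN1 were between 0.367 and 20.9 CPM.

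The summed level of the fibroblast and myoid markers was 23902 to 25487 CPM in shCON, 28823 to 29506 in shUCHL1 and 35007 to 35234 in shHSPA8, most of it collagen. The contractile markers of that list, except MYH11, went the other way in shUCHL1. There ACTA2 was 534 and 567 CPM against 1476 and 1805 in shCON, and TAGLN 663 and 689 CPM against 1528 and 1980, and CNN1 and DES were lower too. MYH11 was low and did not fall, at 2.38 and 2.58 CPM in shUCHL1 against 2.22 and 1.59 in shCON. By count, 3 of the 12 were called higher and 4 lower in shUCHL1, and 5 higher and 0 lower in shHSPA8. Of all 12665 genes tested, 8.54% were called higher and 7.15% lower in shUCHL1, and 8.66% and 6.02% in shHSPA8. The 8 of 11 Sertoli cell markers with values summed to 192 to 199 CPM in shCON, 143 to 144 in shUCHL1 and 104 (103.6 to 103.9) in shHSPA8. Most of that sum was SOX9 and GATA4, which were lower in both knockdown lines, as was WT1. GDNF was 12.7 and 12.2, 8.86 and 9.17, and 12.1 and 13.3 CPM in the same order. AMH was 0.507 and 0.979, 0.977 and 1.26, and 1.26 and 0.970 CPM. For 7 of 8 leukocyte markers the sums were 499.7 to 506, 175 to 189.99 and 300.5 to 305 CPM in the same order, mostly LCP1, which was 459 and 460, 125 and 132, and 241 and 231 CPM. CD14 did not follow that sum, at 34.6 and 37.3, 44.5 and 50.5, and 55.8 and 61.2 CPM, and PTPRC was at 0 to 0.190 CPM. The 7 germ cell markers summed to 16.8 to 17.6, 21.3 to 22.7 and 22.1 to 24.4 CPM. Of these ID4, also counted below as a BMP target, was 1.96 and 3.31, 5.80 and 6.36, and 10.2 and 8.79 CPM. ETV5, the highest of the 7, did not rise, at 13.3 and 12.2, 13.1 and 11.9, and 9.99 and 12.6 CPM. In shUCHL1 GFRA1 was lower, and DDX4 and RET were higher, than in both shCON libraries. Leydig cell markers (2 of 7) summed to 13.4 to 14.7, 17.6 to 21.8 and 17.2 to 17.8 CPM. That sum was mostly NR5A1, at 12.3 and 13.3, 16.7 and 20.3, and 15.7 and 16.7 CPM. STAR overlapped between lines, at 1.01 and 1.41, 0.855 and 1.44, and 1.45 and 1.03 CPM. Endothelial markers (6 of 6) summed to 2.72 to 3.12, 4.02 to 5.07 and 4.01 to 4.05 CPM, each at most 1.65 CPM. CDH5, VWF and TEK lay above both shCON libraries in shUCHL1 only, and KDR in shHSPA8 only. PECAM1 and CLDN5 did so in neither line. The part of these shifts in the results was not tested, and in bulk RNA fewer cells of a type and less RNA per cell cannot be told apart.

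Relative to shCON, FST, INHBA and TGFB1 were lower in shUCHL1, and no member was higher. The fall was 4.37-fold for FST, 2.93-fold for INHBA and 1.54-fold for TGFB1. These 3 calls among 9 tested members stand beside 15.7% of all genes called in this comparison, 7.15% as lower and 8.54% as higher. Because the members were chosen with earlier results known, such shares do not test whether the members are set apart. The median log2 fold change of the 9 was -0.26, against 0.0094 over all genes. In shHSPA8 FST, INHBA and TGFB1 were lower than in shCON, FST by 1.92-fold, and ID1 and ID3 were higher by 1.66-fold and 1.59-fold. Those 5 calls stand beside 14.7% of all genes called, 6.02% as lower and 8.66% as higher, and the median of the 9 members was 0.08, against -0.0032 over all genes. Without shUCHL1 replicate 1 or 2 the count of 5 was 3, without shHSPA8 replicate 1 it was 2, and without shHSPA8 replicate 2 it was 3. Both comparisons use the same shCON libraries. Between the knockdown lines FST, INHBA and ID3 were lower in shUCHL1 than in shHSPA8, beside 14.6% of all genes called, 8.35% as lower and 6.20% as higher. Without shCON replicate 1 or 2 the count of 3 was 5, with TGFB3 and ID1 added. The median log2 difference of the 9 members there was -0.47, against 0.02 over all genes.

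**Figure D1:**
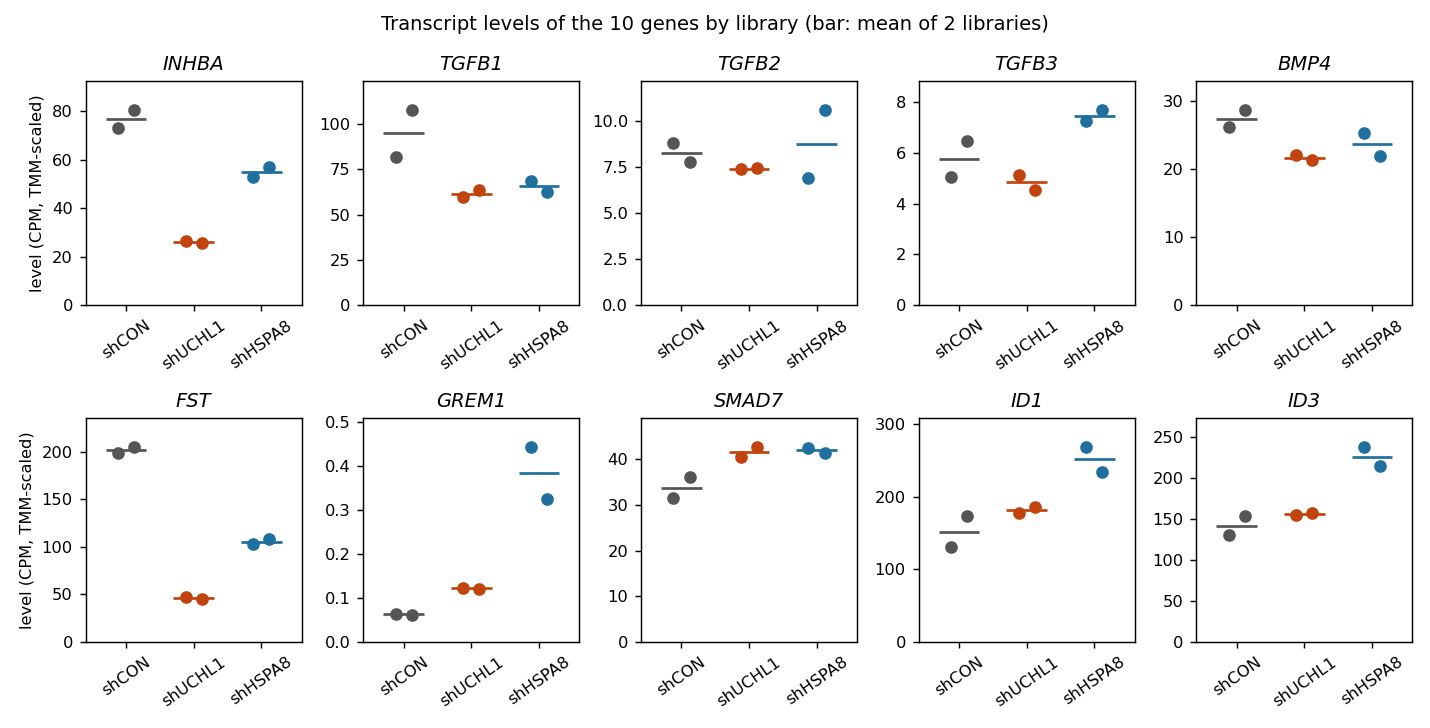
Levels of the 10 genes in CPM (vertical axes from 0, a different scale per panel) in the 6 libraries, 1 point per library, with a bar at the mean of each line. FST and INHBA lie in 3 separate steps, with shUCHL1 lowest, and the ID1 and ID3 points of shHSPA8 lie above all others.

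INHBA encodes the activin subunit. It stood at 73.2 and 80.4 CPM in the shCON libraries, 26.6 and 25.7 CPM in shUCHL1, and 52.8 and 57.1 CPM in shHSPA8. The 3 lines did not overlap: shCON was highest and shUCHL1 lowest. The log2 fold change in shUCHL1 was -1.55 (SE 0.10, edgeR adjusted p = 0.000294). In shHSPA8 it was -0.48 (SE 0.10, edgeR adjusted p = 0.0188). The direct difference between the knockdown lines, shUCHL1 minus shHSPA8, was -1.07 (SE 0.10, edgeR adjusted p = 0.00147). The call in shHSPA8 was lost when the fit held only the shHSPA8 and shCON libraries (edgeR adjusted p = 0.0632) and with a block for the replicate number (edgeR adjusted p = 0.0601). It was also lost without shUCHL1 replicate 1 (edgeR adjusted p = 0.0667) or 2 (0.0666), or without shHSPA8 replicate 1 (0.122) or 2 (0.0661). Its log2 fold change stayed between -0.57 and -0.41 over all 12 alternatives. The calls of the other comparisons held under all 12.

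TGFB1 encodes the most widely expressed TGF-beta ligand. Its shCON libraries were far apart, at 82.1 and 108 CPM, while shUCHL1 gave 59.6 and 63.5 CPM and shHSPA8 68.8 and 62.7 CPM. Both knockdown lines lay below both shCON libraries and overlapped each other. On the log2 scale TGFB1 changed by -0.63 in shUCHL1 (SE 0.14, edgeR adjusted p = 0.0258) and -0.53 in shHSPA8 (SE 0.14, edgeR adjusted p = 0.0469). Between the knockdown lines the difference was -0.10 (95% interval -0.43 to 0.24, edgeR adjusted p = 0.691). The shUCHL1 call was lost without shUCHL1 replicate 1 (edgeR adjusted p = 0.193) or 2 (0.131) and with the replicate block (0.0523). The shHSPA8 call was lost under 8 of 12 alternatives, and its largest edgeR adjusted p, 0.1997, came without shHSPA8 replicate 2. Leaving out shCON replicate 2, the higher control, left a log2 fold change of -0.32 in shHSPA8 (edgeR adjusted p = 0.0778).

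The other ligand genes did not pass the test in any comparison. TGFB2 stood at 8.80 and 7.77 CPM in shCON, 7.39 and 7.43 CPM in shUCHL1, and 6.89 and 10.6 CPM in shHSPA8. The shHSPA8 libraries of TGFB2 spanned those of both other lines. Its log2 fold change was -0.16 in shUCHL1 (95% interval -0.67 to 0.35, edgeR adjusted p = 0.678) and 0.08 in shHSPA8 (95% interval -0.42 to 0.58, edgeR adjusted p = 0.852).

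TGFB3 stood at 5.07 and 6.49 CPM in shCON, 5.13 and 4.56 CPM in shUCHL1, and 7.27 and 7.69 CPM in shHSPA8. The shHSPA8 libraries lay above all others, and the other lines overlapped. Against shCON the log2 difference was -0.26 in shUCHL1 (SE 0.18, edgeR adjusted p = 0.405) and 0.37 in shHSPA8 (SE 0.17, edgeR adjusted p = 0.208). The direct difference, -0.63 (SE 0.18), had an edgeR adjusted p of 0.0564, which was 0.0233 with only those lines in the fit, 0.0240 without shCON replicate 1 and 0.0237 without shCON replicate 2.

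BMP4 encodes a BMP ligand that signals through the SMAD1 branch. Its level was 26.1 and 28.6 CPM in shCON, 21.99 and 21.2 CPM in shUCHL1, and 25.3 and 21.9 CPM in shHSPA8. Both knockdown lines lay below shCON in every library, by little. For BMP4 the log2 difference was -0.34 in shUCHL1 (95% interval -0.62 to -0.06, edgeR adjusted p = 0.105) and -0.21 in shHSPA8 (95% interval -0.49 to 0.07, edgeR adjusted p = 0.294).

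FST encodes follistatin, the secreted antagonist of activin. It stood at 199 and 205 CPM in shCON, 47.2 and 45.3 CPM in shUCHL1, and 103 and 108 CPM in shHSPA8. The lines were well separated, in the same order as for INHBA. FST changed by -2.13 on the log2 scale in shUCHL1 (SE 0.09, edgeR adjusted p = 8.34e-05), nearly the size of the change of the targeted UCHL1 transcript in that line (-2.16, SE 0.11). In shHSPA8 it was -0.94 (SE 0.09, edgeR adjusted p = 0.000607), and the direct difference between the knockdown lines was -1.19 (SE 0.09, edgeR adjusted p = 0.000568). All 3 calls held under each of the 12 alternatives.

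Since FST and INHBA fell together, their proportion was read within each library from the deposited FPKM values, which take transcript length into account. FST FPKM divided by INHBA FPKM was 2.36 and 2.26 in shCON, 1.59 and 1.52 in shUCHL1, and 1.78 and 1.78 in shHSPA8. The antagonist transcript exceeded the ligand subunit transcript in every library, and the ratio was highest in shCON and lowest in shUCHL1, with no overlap between lines. With 2 libraries per line the smallest p of a two-sided exact permutation test is 0.333. A single ratio thus cannot pass the threshold in such a test, and no test was run on the ratios. The same bound applies wherever a single gene is said not to overlap between a pair of lines.

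GREM1 encodes gremlin, a secreted BMP antagonist. It had 1 and 1 counts in shCON, 2 and 2 in shUCHL1 and 7 and 5 in shHSPA8, at most 0.443 CPM. With 12 counts over both shHSPA8 libraries against 2 in shCON the ratio of scaled counts was 6.16, with an exact 95% interval of 1.37 to 56.7 that covers counting error only. For shUCHL1, with 4 counts, it was 1.94 (0.279 to 21.5). Without the low-count filter, GREM1 did not pass the test in shHSPA8 (edgeR adjusted p = 0.0941) or in shUCHL1 (edgeR adjusted p = 0.657).

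SMAD7, an inhibitory SMAD that TGF-beta and BMP signals induce, blocks their receptors in turn. It stood at 31.5 and 36.1 CPM in shCON, 40.6 and 42.7 CPM in shUCHL1, and 42.6 and 41.5 CPM in shHSPA8. Every knockdown library lay above both shCON libraries, and the knockdown lines overlapped. The log2 fold change of 0.30 in shUCHL1 (SE 0.11, edgeR adjusted p = 0.108) and of 0.32 in shHSPA8 (SE 0.11, edgeR adjusted p = 0.0993) did not pass. Without shCON replicate 2 the shHSPA8 difference was 0.42 (edgeR adjusted p = 0.0388).

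ID1 and ID3 encode helix-loop-helix proteins without a DNA-binding domain, which hold back differentiation factors of that family. ID1 stood at 130.2 and 173 CPM in shCON, 177 and 185 CPM in shUCHL1, and 268 and 234 CPM in shHSPA8. The shHSPA8 libraries were highest, while shCON replicate 2 came close to shUCHL1. The log2 fold change was 0.73 in shHSPA8 (SE 0.14, edgeR adjusted p = 0.0158) and 0.26 in shUCHL1 (SE 0.14, edgeR adjusted p = 0.283). The call in shHSPA8 was lost without shHSPA8 replicate 1 (0.63, edgeR adjusted p = 0.0843), and in shUCHL1 the gene passed without shCON replicate 2 (0.48, edgeR adjusted p = 0.0322).

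ID3 stood at 129.5 and 154 CPM in shCON, 154 and 157 CPM in shUCHL1, and 237 and 214 CPM in shHSPA8. Here too the shHSPA8 libraries were set apart and the other lines nearly touched. The log2 fold change was 0.67 in shHSPA8 (SE 0.11, edgeR adjusted p = 0.00737), a call that held under all 12 alternatives, and 0.14 in shUCHL1 (SE 0.11, edgeR adjusted p = 0.468).

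The knockdown lines were compared directly for the ID genes. ID3 was lower in shUCHL1 than in shHSPA8 by 0.54 on the log2 scale (SE 0.11, edgeR adjusted p = 0.0199). That call was lost without shUCHL1 replicate 1 (edgeR adjusted p = 0.185) or 2 (0.157), without shHSPA8 replicate 1 (0.126) and with the replicate block (0.0587). For ID1 the difference was -0.47 (SE 0.14, edgeR adjusted p = 0.0687), and it passed with only those lines in the fit (edgeR adjusted p = 0.0103), without shCON replicate 1 (0.0101) or 2 (0.0108) and in DESeq2 (DESeq2 adjusted p = 0.0275). ID1 FPKM divided by ID3 FPKM stayed between 1.14 and 1.34 over the 6 libraries, with the ranges of shCON and shHSPA8 overlapping.

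**Figure D2:**
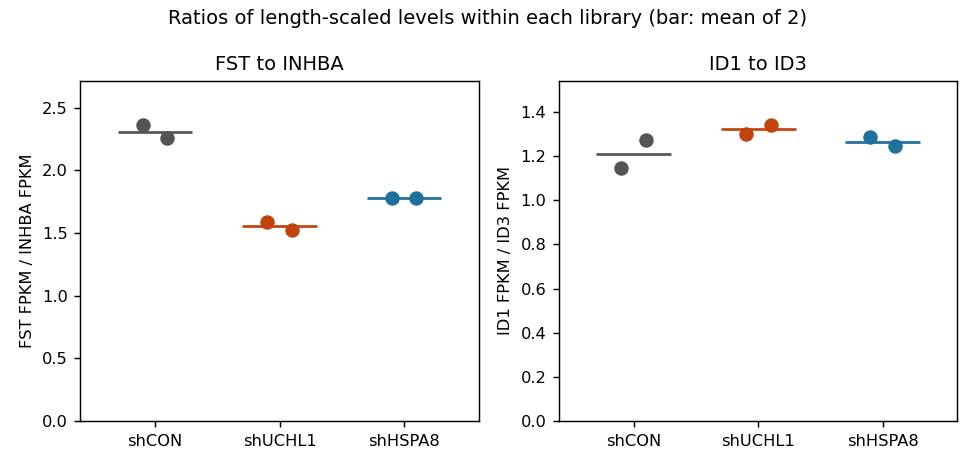
Ratio of FST to INHBA (left) and of ID1 to ID3 (right), from FPKM within each library, 1 point per library and a bar at the mean of each line, with vertical axes from 0. The FST to INHBA ratio is 2.36 and 2.26 in shCON and 1.59 and 1.52 in shUCHL1, while the ID1 to ID3 ratio stays between 1.14 and 1.34.

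**Figure D3:**
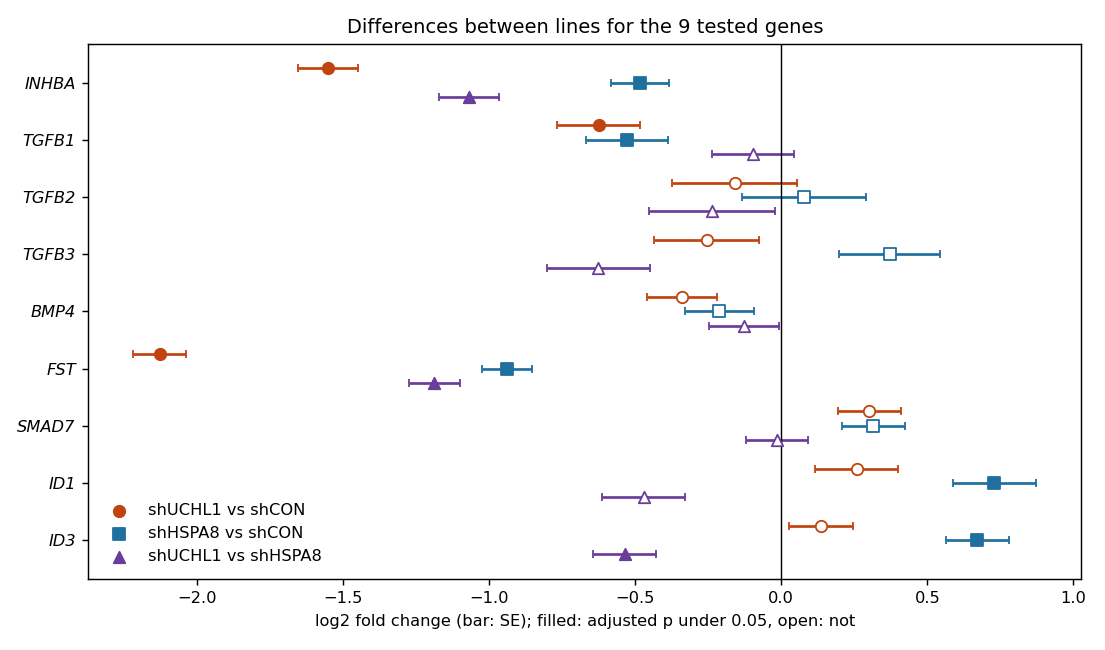
Log2 fold change (horizontal axis) with SE bars for the 9 tested genes in each comparison between lines, filled where the edgeR adjusted p is under 0.05. FST and INHBA lie left of 0 in all 3 comparisons, and ID1 and ID3 lie right of 0 in both comparisons with shCON.

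Levels per transcript length ranked the members alike at the extremes. In shCON the FPKM was 211 ± 38.6 for ID1, 173 ± 18.8 for ID3, 142 ± 5.78 for FST, 67.4 ± 10.4 for TGFB1 and 61.4 ± 4.40 for INHBA (SD, n = 2). Below them came BMP4 at 18.1 ± 2.08, SMAD7 at 12.7 ± 1.29, TGFB2 at 1.91 ± 0.156 and TGFB3 at 1.59 ± 0.290 FPKM, and GREM1 was listed at 0.01. The neighbours ID1 and ID3 overlapped between libraries, and so did TGFB1 and INHBA. In shUCHL1 FST came after TGFB1, at 34.1 ± 2.42 against 46.0 ± 1.94 FPKM, and SMAD7 and BMP4 stood at 16.4 ± 0.622 and 15.7 ± 0.233 FPKM. In shHSPA8 FST, at 72.1 ± 1.48 FPKM, kept its place above TGFB1 at 45.6 ± 4.99 and INHBA at 40.6 ± 0.827. TGFB1 exceeded TGFB2 by 17.5 to 41.5 times and TGFB3 by 20.2 to 43.5 times in FPKM over the 6 libraries.

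**Figure D4:**
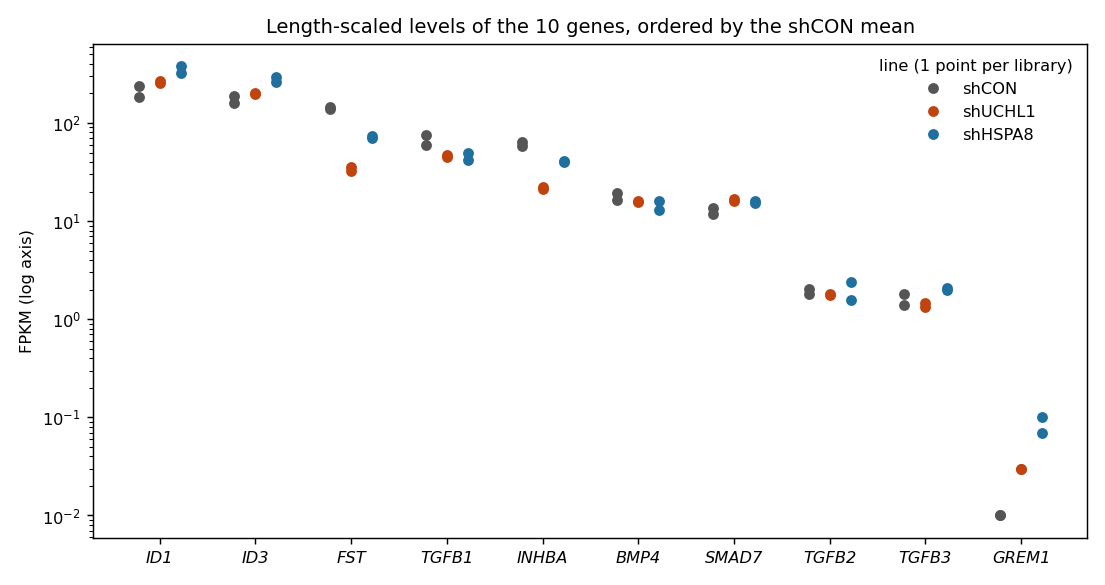
FPKM of the 10 genes on a log axis, 1 point per library, coloured by line and ordered by the shCON mean. ID1 and ID3 are highest in each line, GREM1 is lowest, and FST spans from 137.58 and 145.76 FPKM in shCON down to 35.76 and 32.34 FPKM in shUCHL1.

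Around these members, 97 other genes of the pathway were listed by role, of which 77 carried values and 63 were tested. In shUCHL1 13 of the 63 were higher and 6 lower than in shCON, with a median log2 fold change of 0.13 (0.0094 over all genes). In shHSPA8 18 were higher and 3 lower, with a median of 0.06 (-0.0032 over all genes). Between the knockdown lines 8 were higher and 9 lower in shUCHL1, with a median of -0.03 (0.02 over all genes). NOG is among the higher calls of each comparison, and INHBB among those of the comparisons with shUCHL1. These genes passed the low-count filter only through shUCHL1, where they were high. The called shares of the 63 were thus 30.2%, 33.3% and 27.0%, beside 15.7%, 14.7% and 14.6% of all 12665 genes. The gene lists were chosen with earlier results of these data known, so these shares do not test whether the pathway is set apart. With the members included, the calls among 72 genes numbered 22 for shUCHL1, 26 for shHSPA8 and 20 for the direct comparison. Without shUCHL1 replicate 1 or 2 the count in shUCHL1 was 12 or 11. The count of 26 in shHSPA8 was 17 without shUCHL1 replicate 1 or 2, 12 without shHSPA8 replicate 1 and 17 without shHSPA8 replicate 2. The count of 20 was 7 or 8 without shUCHL1 replicate 1 or 2, 12 or 13 without shHSPA8 replicate 1 or 2, and 32 without either shCON library. Scaling by library size alone turned the split of the last from 8 higher and 12 lower to 13 higher and 10 lower. Of the called genes that the naming rule chose, 9 of 18 kept their call in shUCHL1, 8 of 17 did so for shHSPA8 and 5 of 17 for the direct comparison under every alternative, and the genes named below are among those, picked after their values were seen, unless a lost call is given.

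Receptor transcripts rose where they changed against shCON. Of 13 tested, 4 were higher in shUCHL1 and 3 in shHSPA8, and none was lower. These shares of 30.8% and 23.1% stand beside 8.54% and 8.66% of all genes called higher. In shUCHL1 the AMHR2 call was lost under 8 of 12 alternatives and the ACVR2B call under 2. The ENG call in shHSPA8 was lost under 1. TGFBR2, the type II receptor of TGF-beta, stood at 63.8 ± 0.249 CPM in shCON, 121 ± 3.37 in shUCHL1 and 143 ± 6.97 in shHSPA8 (SD, n = 2). It rose by 0.93 (SE 0.09, edgeR adjusted p = 0.000949) and 1.16 (SE 0.09, edgeR adjusted p = 0.000302) on the log2 scale. TGFBR3, the co-receptor betaglycan that also binds inhibin, stood at 10.7 ± 2.85, 32.5 ± 1.63 and 48.6 ± 9.59 CPM in the same order, a rise of 1.60 (SE 0.21, edgeR adjusted p = 0.0033) and of 2.18 (SE 0.21, edgeR adjusted p = 0.000735).

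Of 13 ligand genes tested, members included, 2 were higher and 2 lower in shUCHL1, and 1 was higher and 3 lower in shHSPA8. The called share was 30.8% in each comparison, beside 15.7% and 14.7% of all genes. INHBB, a second activin subunit gene, stood at 0.310 ± 0.0806 CPM in shCON, 1.72 ± 0.277 in shUCHL1 and 0.223 ± 0.0417 in shHSPA8, far below INHBA. It rose in shUCHL1 by 2.44 on the log2 scale (SE 0.35, edgeR adjusted p = 0.0048) and was higher there than in shHSPA8 by 2.90 (SE 0.38, edgeR adjusted p = 0.00437). INHBB passed the low-count filter only through shUCHL1, the line where it was high, so this selection favoured a rise there. INHBE rose from 2.80 ± 0.155 CPM in shCON to 11.1 ± 0.0618 in shUCHL1, by 1.98 (SE 0.17, edgeR adjusted p = 0.000607). The other calls in shHSPA8 did not hold under every alternative: INHBE was higher there by 0.86 (edgeR adjusted p = 0.0203, at most 0.119 over 12 alternatives), and GDF6, a BMP-type ligand, was lower by 1.07 (edgeR adjusted p = 0.00977, at most 0.0682).

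Antagonists and latency proteins were few. Of 5 antagonist genes tested, FST included, 1 was higher and 3 lower in shUCHL1, and 1 was higher and 1 lower in shHSPA8. These shares of 80% and 40% rest on 5 genes and stand beside 15.7% and 14.7% of all genes called. The shUCHL1 calls of BAMBI and FSTL3 as lower were lost under 1 and 3 of 12 alternatives. In both comparisons the higher gene was NOG, the BMP antagonist noggin. NOG passed the low-count filter only through shUCHL1, so this selection favoured a rise there. It had 68 counts over both shUCHL1 libraries and 1 in shCON, a ratio of scaled counts of 66.1 (exact 95% interval 11.5 to 2649, counting error only). In shHSPA8 it had 15 counts, and that call was lost under 7 of 12 alternatives (edgeR adjusted p = 0.0364, at most 0.156). Among 4 latency genes, LTBP1, which ties latent TGF-beta to the matrix, rose from 75.5 ± 12.3 CPM in shCON to 239 ± 7.93 in shUCHL1 and 180.2 ± 20.6 in shHSPA8. Those rises were 1.66 (SE 0.14, edgeR adjusted p = 0.000551) and 1.26 (SE 0.14, edgeR adjusted p = 0.00123) on the log2 scale. In all, 1 of the 4 was higher in shUCHL1 and 2 in shHSPA8, or 25% and 50%, beside 8.54% and 8.66% of all genes called higher. The other latency call in shHSPA8, LTBP2, was lost under 5 of 12 alternatives.

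Of 16 SMADs and regulators tested, SMAD7 included, 1 was higher in shUCHL1 and 1 in shHSPA8, and none was lower. These shares of 6.25% stand beside 15.7% and 14.7% of all genes. In both comparisons the gene was SMURF1, a ubiquitin ligase that acts on SMADs and their receptors. Between the knockdown lines 3 of the 16, or 18.75%, were called beside 14.6% of all genes, SMAD3 and PMEPA1 as higher in shUCHL1 and SKI as lower. Each of these SMAD and regulator calls was lost under at least 1 alternative.

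BMP target genes other than ID1 and ID3 were read beside them. Of 8 tested, 3 were higher in shUCHL1 and 6 in shHSPA8, ID1 and ID3 among the latter, and none was lower. These shares of 37.5% and 75% stand beside 8.54% and 8.66% of all genes called higher. The shUCHL1 calls of ID4 and MSX2 were each lost under 2 of 12 alternatives. In shHSPA8 the MSX1 call was lost under 4, and the HEY1 and ID1 calls under 1 each. ID2 stood at 41.9 ± 4.06 CPM in shCON, 73.3 ± 1.85 in shUCHL1 and 70.5 ± 2.79 in shHSPA8, a rise of 0.81 (SE 0.10, edgeR adjusted p = 0.00318) and of 0.75 (SE 0.10, edgeR adjusted p = 0.00373) on the log2 scale. ID4 rose in shHSPA8 from 2.63 ± 0.949 to 9.52 ± 1.02 CPM, by 1.85 (SE 0.24, edgeR adjusted p = 0.00282).

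Target genes of TGF-beta split. Of 13 tested, 1 was higher and 4 lower in shUCHL1, and 6 were higher and 2 lower in shHSPA8. The called shares of 38.5% and 61.5% stand beside 15.7% and 14.7% of all genes. The calls of SPHK1 and BHLHE40 in shUCHL1 and of SNAI1 in shHSPA8 were each lost under 2 of 12 alternatives. CCN2, the matricellular connective tissue growth factor (CTGF), stood at 478 ± 15.3 CPM in shCON, 200.5 ± 1.18 in shUCHL1 and 343 ± 20.0 in shHSPA8. It fell in shUCHL1 by 1.25 on the log2 scale (SE 0.08, edgeR adjusted p = 0.000294). In shHSPA8 its log2 fold change was -0.48 (SE 0.08, edgeR adjusted p = 0.00895), a call not followed under the alternatives. TGFBI, a secreted matrix protein induced by TGF-beta, stood at 738 ± 75.7, 647 ± 2.43 and 1573 ± 85.3 CPM in the same order, a rise of 1.09 in shHSPA8 (SE 0.09, edgeR adjusted p = 0.000489). ADAM12, a membrane metalloprotease, rose there from 74.6 ± 12.6 to 233 ± 29.5 CPM, by 1.64 (SE 0.14, edgeR adjusted p = 0.00049). NEDD9, a docking protein of focal adhesions, fell there from 27.0 ± 0.161 to 15.9 ± 1.47 CPM, by 0.76 (SE 0.11, edgeR adjusted p = 0.00525).

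**Figure D5:**
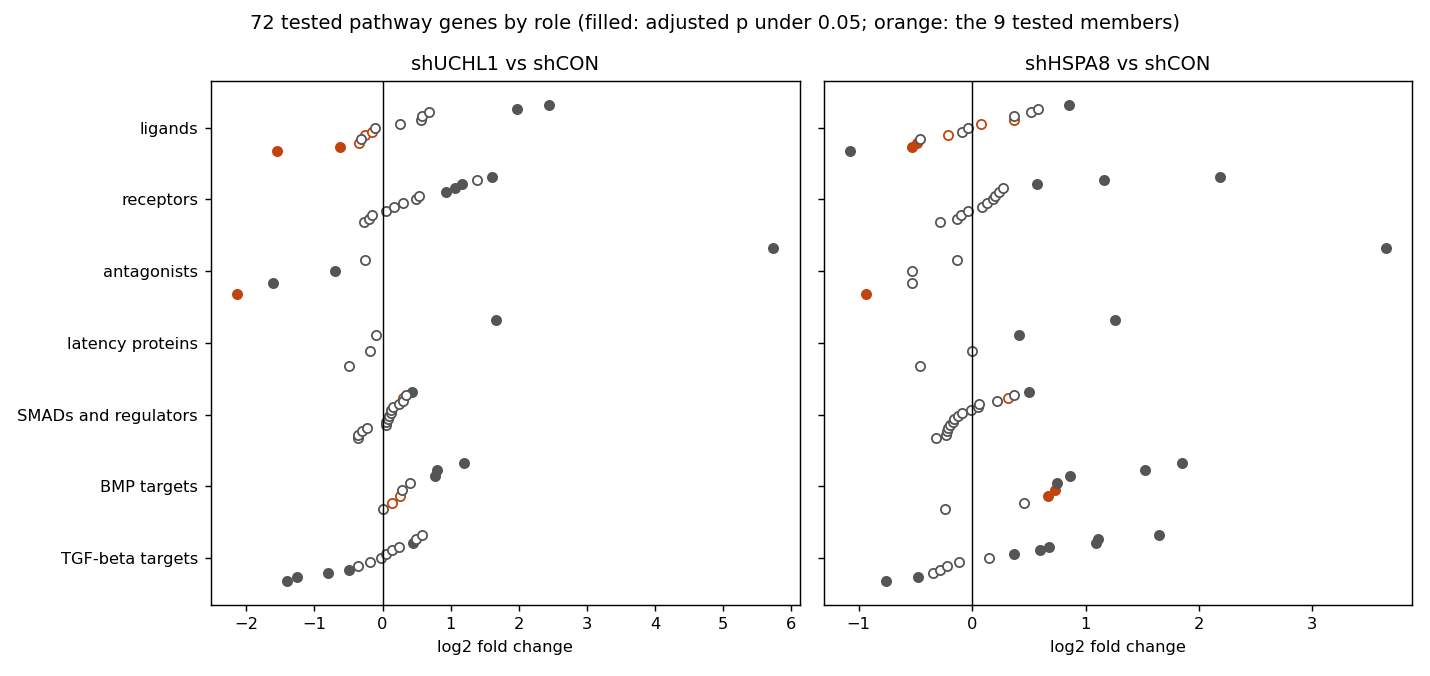
Log2 fold change (horizontal axis, with its own scale in each panel) of the 72 tested pathway genes by role, in shUCHL1 (left) and shHSPA8 (right) against shCON, filled where the edgeR adjusted p is under 0.05 and orange for the 9 tested members. The called receptors lie right of 0 in both panels, the lowest antagonist is FST, and the highest point, NOG, is a fitted value that rests on 1 count in shCON.

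Genes whose profile over the 6 libraries lay nearest to a called member were found by the root mean square difference of log2 CPM, each gene centred on its own mean. For INHBA the nearest was THBD, at 0.028, against a range of 1.63 of INHBA itself. For FST it was LMOD1 at 0.089, against a range of 2.17, and LCP1 followed at 0.150. TGFB1 was nearest to UCKL1, at 0.042 with a range of 0.85, and the follistatin-like gene FSTL3 came next at 0.047. ID1 was nearest to TIMP1, at 0.023 with a range of 1.04, and ID3 to DNAJB1, at 0.040 with a range of 0.87. RHOD was among the nearest 3 of both ID1 (0.047) and ID3 (0.043).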

How the data were processed

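The authors deposited 1 table, with a read count and an FPKM value per gene and library, per the file headers. Part of the genes in each library (1014 to 1117) have fractional read counts, so the deposited counts are treated like estimated counts and were rounded before testing. Per the submitters' processing notes, Trimmomatic 0.36 was among the tools used. Which aligner, counter, build and strand mode were used is not given in the sources used here, so no coordinates are given and overlapping antisense genes cannot be told apart. The log2 ratios and p-values the authors give for each pair of lines were not used in the comparisons. Of 33229 rows, 16599 carry values, and each of their IDs has an entry in RefSeq's gene list (ARS1.2).

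Comparisons used the quasi-likelihood F test of edgeR (edgeR 4.0.16, R 4.3.3) on genes kept by filterByExpr, scaled by TMM. The model had 1 term, the group, and was fitted to the 6 libraries together. SE is the log2 fold change divided by the square root of F, and intervals use the fit's degrees of freedom. FPKM values, as the authors deposited them, served for levels between genes and for ratios. Library totals of 1.57e+07 to 1.64e+07 counts set the depth. The members and gene lists were chosen with earlier results of these data known. Named pathway genes were the called non-members with the largest changes, up to 4 per role and comparison. CCN2 was matched as CTGF. A gene that the rule names is not reported here. The test was first tested on simulated data. Alternatives were DESeq2 1.42.0, its size factors, library size alone, no low-count filter, only the lines compared, a replicate block and leaving out each library.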

Additional observations from a re-analysis of the deposited data

How the results depend on the processing

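Over 324 values of the members under 12 alternatives, 285 kept direction and side of the threshold, 22 lost the call, 9 gained one and 8 changed sign, none of these 8 called. Library size alone turned the direct differences of TGFB1 (0.0048) and SMAD7 (0.088). Leaving out 1 library took ID3 in shUCHL1 from -0.0026 (without shCON replicate 1) to 0.26, TGFB2 in shHSPA8 from -0.27 (without shHSPA8 replicate 2; -0.011 without shCON replicate 2) to 0.36, TGFB2 between the knockdown lines from -0.52 to 0.11 (without shHSPA8 replicate 2), and SMAD7 there from -0.057 to 0.023 (without shUCHL1 replicate 1; 0.0053 without shHSPA8 replicate 1).

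Leaving out 1 library moved the calls over all genes between 532 and 2629 in shUCHL1, 920 and 2425 in shHSPA8 and 270 and 3100 between the knockdown lines (1987, 1859 and 1843 with all 6). The called members ran from 2 to 4, 2 to 5 and 2 to 5, and the called pathway genes from 11 to 27, 12 to 28 and 7 to 32. With only the lines compared in the fit, shHSPA8 had 1161 genes and 3 members called, and the direct comparison 3106 genes, 5 members and 32 pathway genes. Same-numbered deviations correlated across genes at 0.29 for shCON and shUCHL1, -0.63 for shCON and shHSPA8, and -0.29 for shUCHL1 and shHSPA8. Same-numbered libraries thus tended to deviate alike in shCON and shUCHL1, and oppositely in shHSPA8 against either other line. A block for the replicate number takes up only a difference that has the same direction in every line. With a replicate block the calls were 1230, 1131 and 923 genes, 3 members in shHSPA8 and 12 pathway genes in the direct comparison. The cause of these shifts was not tested. Library size alone made 68.1% of calls higher in shUCHL1 (54.5% with TMM) and 64.4% in the direct comparison (42.6%), where it moved the median of all genes from 0.02 to 0.12. With at most 7 counts per library GREM1 was under the low-count filter, and the intervals of TGFB2 and TGFB3 against shCON include 0.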
